A study of Homo sapiens with 6 samples.

Results

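Mitochondrial ribosomal protein genes were described as the genes of the deposited count table whose symbol starts with MRPL or MRPS and a number. The rule used the symbol alone and no measured value. It found 81 symbols of 26484, of which 51 were MRPL symbols, named for the large subunit, and 30 were MRPS symbols, named for the small subunit. GENCODE 29 lists 77 of them as protein-coding. The other 4 were the antisense transcript MRPL23-AS1 and the pseudogenes MRPL42P5, MRPL45P2 and MRPS31P5. The classes follow the symbols: the proteins of MRPS18A and MRPS30 belong to the large subunit, and that of MRPS36 to neither.

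Both groups were MCF10CA1a cells, a malignant human breast epithelial line of the MCF10A lineage. The cells were grown on dishes coated with a hydrogel of 8000 Pa, the stiffer surface, or of 500 Pa, the softer one. Growth factor-reduced Matrigel at 0.14 mg/ml was conjugated to both gels, the medium with 5% horse serum was the same, and RNA labelled as cytosolic was taken on day 5. The comparison asks how transcript levels differed with the stiffness of the surface, over 3 biological replicates at 8000 Pa and 3 at 500 Pa from 1 cell line.

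The mitochondrial ribosome translates the few messages encoded by mitochondrial DNA, which specify core subunits of the respiratory chain and of ATP synthase. Its RNAs come from mitochondrial DNA, but its proteins are encoded in the nucleus, made on cytosolic ribosomes and imported. Some of these proteins have a counterpart in the bacterial ribosome, and others are specific to mitochondria. Promoters of nuclear genes for mitochondrial proteins often carry sites for NRF1, ETS-family factors such as GABPA, and YY1, and some carry sites for ZNF143.

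The depth was 10360236, 9068926 and 10739449 gene counts in replicates 1, 2 and 3 at 8000 Pa, and 18779742, 8526378 and 8305601 at 500 Pa. The labelled epithelial identity was checked with 9 epithelial markers, whose summed level was 10917 to 21153 CPM at 8000 Pa and 14053 to 26337 CPM at 500 Pa. KRT8 made up most of this sum. CPM here is the count divided by the library's size in units of 1e+06, after scaling by the trimmed mean of M-values (TMM). The summed fibroblast markers reached 1.79 to 4.65 CPM at 8000 Pa and 1.23 to 1.86 CPM at 500 Pa, with COL1A2, COL3A1 and LUM at 0 counts. Leukocyte markers summed to 19.8 to 42.8 CPM at 8000 Pa and 21.9 to 47.3 CPM at 500 Pa, with PTPRC and CD3E at 0 counts. Endothelial markers summed to 208 to 252 CPM at 8000 Pa and 92.7 to 149 CPM at 500 Pa, nearly all of it PECAM1, with TEK at 0 counts. Adipocyte and neural markers summed to 59.3 to 101 CPM at 8000 Pa and 93.1 to 159 CPM at 500 Pa, with ADIPOQ and SOX10 at 0 counts. With the replicate number as a block, edgeR called PECAM1 (log2 fold change 1.01), CDH5 (1.99), LPL (2.43) and FABP4 (2.12) higher at 8000 Pa. TUBB3, which made up most of the adipocyte and neural sum and was named after its values were seen, averaged 67.4 ± 25.0 CPM at 8000 Pa and 112 ± 38.5 CPM at 500 Pa (SD, n = 3 each) and was not called. The markers of smallest p in the other lists were not called either: KRT17 averaged 1210 ± 386 CPM at 8000 Pa and 2249 ± 1001 CPM at 500 Pa, COL1A1 2.15 ± 1.48 CPM at 8000 Pa and 1.20 ± 0.678 CPM at 500 Pa, and CD14 13.6 ± 6.34 CPM at 8000 Pa and 8.98 ± 2.28 CPM at 500 Pa. Of the 9 epithelial markers, 6 had a log2 fold change below 0 without pairing, KRT17 among them. The other 3 lay above 0: TP63 (1.07), CDH1 (0.44) and EPCAM (0.19). The part of all these marker genes in the members' values was not tested. Along the first principal component, which held 49.1% of the variance, replicate 1 at 8000 Pa stood at -62.3, replicate 3 at 8000 Pa at 35.4 and replicate 3 at 500 Pa at 47.8, so the component did not separate the groups. In bulk RNA, fewer cells of a type and less RNA per cell cannot be told apart.

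The RefSeq promoter table (GRCh38.p14) held 84 start sites of 68 members, each given as 250 bases before to 50 bases after the start. The ETS core CCGGAAG was found, on either strand, in 38.1% of the member promoters, against 10.3% of all 35116 promoters and 17.4% of the 12841 promoters of genes tested here. The YY1 motif AAGATGGCG was found in 15.5% of the member promoters, against 1.75% of all promoters and 3.64% of those of tested genes. The NRF1 motif GCGCNTGCG was found in 15.5% of the member promoters, against 7.47% of all promoters and 13% of those of tested genes. The ZNF143 motif, searched after it had been seen in the printed sequences, was found in 7.14% of the member promoters, against 0.849% and 1.58%. All motifs were searched on both strands. Matches of different motifs overlapped in 0 member promoters. The 120 bases before the start are shown for MRPL52, MRPL24 and MRPL11, the members of smallest p below, for MRPS12, the MRPS member of lowest fold change, and for MRPL50, MRPL42 and MRPL30, which lay at the other end of the order. For MRPS12 the later of its listed starts is shown. Capitals mark motif matches within these bases: YY1 in MRPL52, ZNF143 in MRPL24, MRPL50 and MRPL42, ETS in MRPS12 and NRF1 in MRPL30.
MRPL52 (chr14:22829767-22829886, plus strand): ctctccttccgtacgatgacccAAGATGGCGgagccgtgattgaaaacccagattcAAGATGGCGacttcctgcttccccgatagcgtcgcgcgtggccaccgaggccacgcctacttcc
MRPL24 (chr1:156741089-156741208, minus strand): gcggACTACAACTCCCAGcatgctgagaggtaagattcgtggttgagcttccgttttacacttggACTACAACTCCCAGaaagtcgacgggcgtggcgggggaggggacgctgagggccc
MRPL11 (chr11:66438849-66438968, minus strand): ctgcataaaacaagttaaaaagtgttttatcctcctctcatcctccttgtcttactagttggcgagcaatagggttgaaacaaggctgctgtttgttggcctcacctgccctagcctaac
MRPS12 (chr19:38930834-38930953, plus strand): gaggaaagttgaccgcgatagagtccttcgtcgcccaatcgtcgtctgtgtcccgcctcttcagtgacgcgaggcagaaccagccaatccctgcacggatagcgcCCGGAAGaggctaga
MRPL50 (chr9:101398619-101398738, minus strand): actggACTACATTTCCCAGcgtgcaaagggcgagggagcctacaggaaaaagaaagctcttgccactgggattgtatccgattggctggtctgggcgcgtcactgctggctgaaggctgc
MRPL42 (chr12:93467394-93467513, plus strand): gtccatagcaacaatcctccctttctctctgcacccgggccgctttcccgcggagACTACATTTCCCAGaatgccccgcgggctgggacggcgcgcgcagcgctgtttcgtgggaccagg
MRPL30 (chr2:99181064-99181183, plus strand): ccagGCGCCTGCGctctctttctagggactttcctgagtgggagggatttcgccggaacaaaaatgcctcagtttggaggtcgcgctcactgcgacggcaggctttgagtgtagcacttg

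A match is a run of letters and not a shown binding site. The 5 tested members with a ZNF143 match (MRPL19, MRPL24, MRPL42, MRPL50 and MRPS22) included MRPL24, among the 4 lowest MRPL fold changes, and MRPL50 and MRPL42, among the 4 highest. Their median log2 fold change, 8000 Pa over 500 Pa, was 0.14, against -0.16 for the 61 tested members with a promoter and no match. Their median transcript GC content was 38.4%, against 50.3% without a match, and its part in this difference was not tested. The median log2 fold changes were -0.19 with and -0.13 without an NRF1 match, -0.11 with and -0.16 without an ETS match, and -0.11 with and -0.17 without a YY1 match. These medians are descriptions of small groups, without a test.

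The members were expressed across a wide range. Of the 81 symbols, 77 passed the filter on low counts, 49 MRPL and 28 MRPS, and 75 of these were protein-coding. Per kilobase of the principal transcript, the mean level over the 6 libraries ran between 1.88 and 336 CPM per kb over the 75 coding members, with a median of 65.2. The median was 88.7 CPM per kb for MRPL and 46.5 CPM per kb for MRPS members. The highest were MRPL33 at 336 and MRPL21 at 298 CPM per kb among MRPL members, and MRPS34 at 270 and MRPS15 at 263 CPM per kb among MRPS members. These 4 are 2 proteins of the large subunit and 2 of the small subunit.

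Of the 4 symbols that did not pass the filter, MRPL23-AS1 and MRPL42P5 had 0 counts in every library. MRPS18B had 3, 3 and 15 counts at 8000 Pa, against 28, 5 and 8 at 500 Pa. MRPS24 had 2, 3 and 7 counts at 8000 Pa, against 14, 2 and 2 at 500 Pa. Both encode proteins of the small subunit, and their counts were low at both stiffnesses. MRPS18B lies at chr6:30617709-30626395 (GRCh38), in the major histocompatibility region. In the window chr6:28617709-32626395 around it, 15 of 132 coding genes had a mean level above 3 CPM (11.4%), against 9210 of 18584 coding genes in the genome (49.6%). MRPS24 shares 23.2% of its exonic bases with the readthrough gene URGCP-MRPS24. Reads that fall on 2 genes may be left uncounted, and which setting the authors used is not given in the sources used here. Members that share more differed in level: MRPL12 (68.2%) averaged 109 CPM at 8000 Pa, and the pseudogene MRPS31P5 (66.3%) averaged 1.32 CPM. The part of shared exons in the low counts of MRPS24 was not tested.

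MRPL23, a large-subunit protein bound near the exit of the peptide tunnel, passed the filter at a level close to its floor. It had 5, 17 and 2 counts at 8000 Pa, against 16, 27 and 14 at 500 Pa, which was 0.399, 1.80 and 0.199 CPM against 0.894, 3.02 and 2.00 CPM. Its fitted log2 fold change of -1.29 ± 0.75 (SE) was the lowest of all members, but it rests on these few counts and depends on the prior count of the fit. As for MRPS18B and MRPS24, the part of the authors' counting settings in this low level was not tested. A count of 3 corresponds to 0.168 to 0.429 CPM in these libraries.

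**Figure D1:**
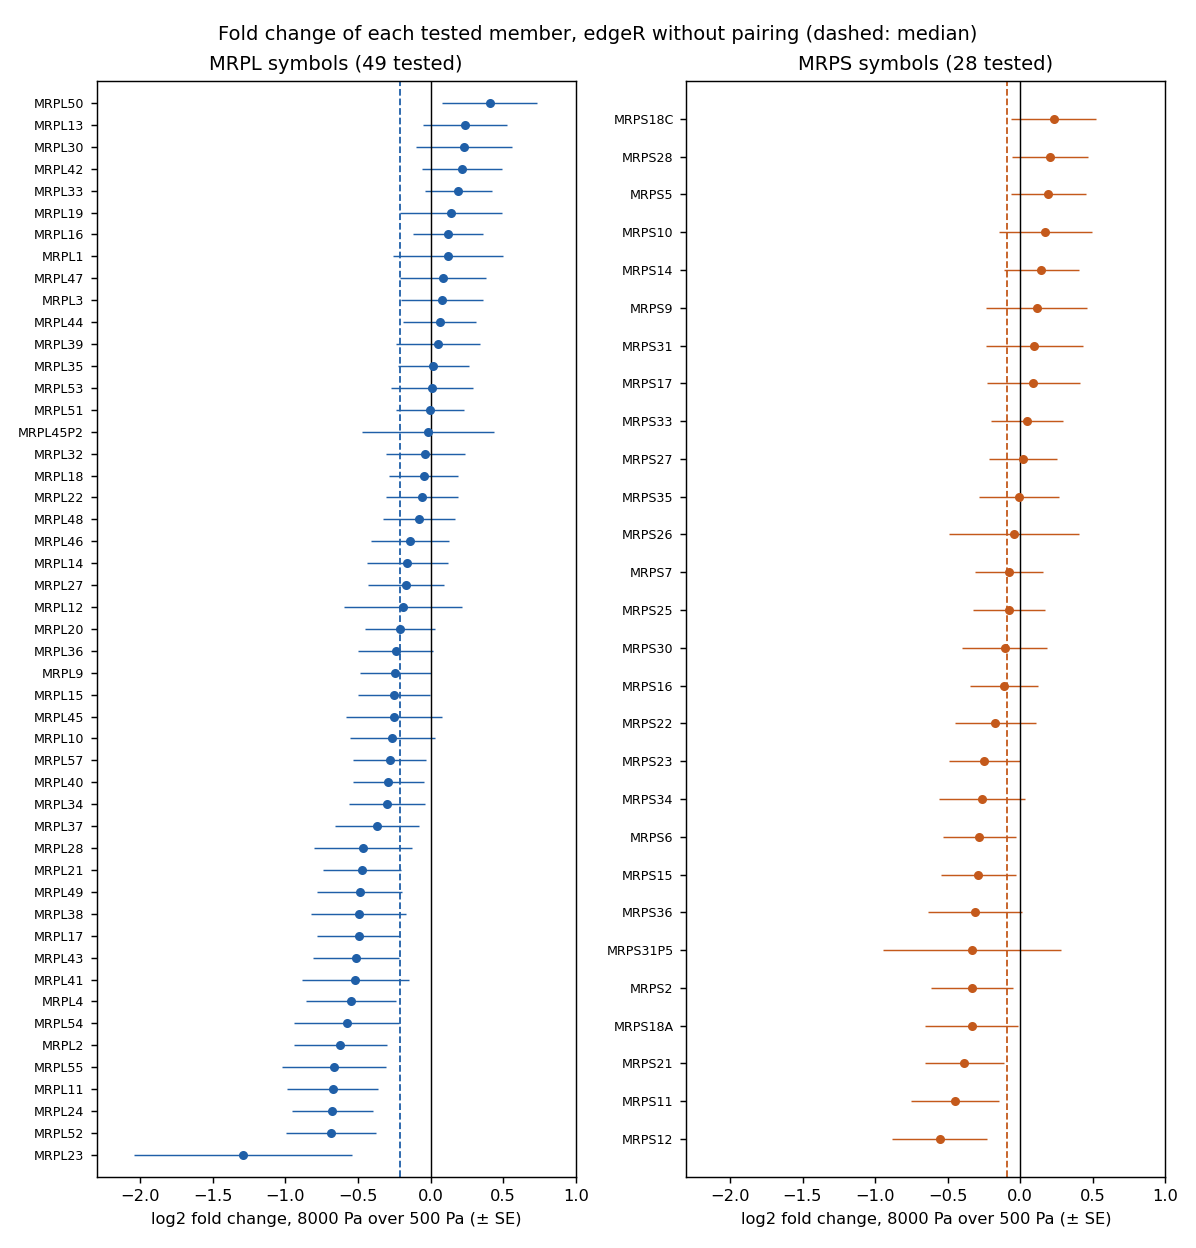
Log2 fold change, 8000 Pa over 500 Pa, of the 49 tested MRPL (left) and 28 tested MRPS symbols (right), as points with bars of ± 1 SE from edgeR without pairing, and the class median as a dashed line. Of the MRPL points 35 of 49 lie below 0, and of the MRPS points 18 of 28.

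No member passed the test between the groups. With edgeR's quasi-likelihood test over 11517 genes, an adjusted p under 0.05 was reached by 0 of 77 members and by 0% of all genes, and the smallest adjusted p was 1.00 among members and 0.161 over all genes. At an unadjusted p under 0.05 there were 3 members lower at 8000 Pa (MRPL52, MRPL24 and MRPL11) and 0 higher, against 0.981% and 1.47% of all genes. The plot of fold changes by member shows that most were small: the median log2 fold change was -0.21 for MRPL and -0.09 for MRPS members, against 0.01 over all genes. Values below 0 were held by 35 of 49 MRPL and 18 of 28 MRPS members, against 48.8% of all genes. DESeq2 called 7 genes and 0 members.

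The replicate number was taken as a pairing, although the labels state no shared day or batch for a number. Deviations from the group mean correlated within every number (r = 0.409, 0.184 and 0.516 over all tested genes). Between unlike numbers r ran from -0.499 to 0.199. The 0.199, between replicate 1 at 8000 Pa and replicate 2 at 500 Pa, exceeded the value within replicate 2, so the pairing is uncertain there. With the number as a block, edgeR called 0.53% of all genes (61) and 0 members, and the smallest adjusted p of a member was 0.163, for MRPL52. At an unadjusted p under 0.05, 17 members were lower (15 MRPL and 2 MRPS) and 0 higher, against 6.12% and 4.49% of all genes. edgeR combines each gene's own spread with a spread pooled over genes, weighted by prior degrees of freedom. Their median was infinite with the block, against 9.02 without pairing. SE and p with the block thus rest largely on the pooled spread and not on each gene's own replicates. Within all 3 pairs, 27 of 77 members were lower at 8000 Pa (20 MRPL and 7 MRPS), against 15.2% of all genes, and 7 were higher, against 14.6%. The values of all 3 libraries at 8000 Pa lay below all 3 at 500 Pa for 1 member, MRPS23, against 2.85% of all genes. They lay above for 2, MRPL33 and MRPS28, against 4.02%.

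A correction for transcript GC content was combined with the block. In that edgeR fit 0.747% of all genes (86) passed, 0.321% lower at 8000 Pa, and 2 of 77 members fell. At an unadjusted p under 0.05, 16 members were lower and 1 higher, against 6.11% and 6.26% of all genes. The 2 members past the adjusted threshold were MRPL52, with a log2 fold change of -0.70 ± 0.17 (SE, adjusted p = 0.0429), and MRPL11, with -0.70 ± 0.17 (adjusted p = 0.0444). With 2 residual degrees of freedom per gene, these SE and adjusted p also lean on the spread pooled over genes. MRPL24 (adjusted p = 0.0635) and MRPL17 (adjusted p = 0.0788) came next and did not pass. Both calls were absent from the fits without the correction or without the block. With the correction alone 8 members were lower and 0 higher at an unadjusted p under 0.05, against 2.62% and 3.22% of all genes.

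MRPL52 and MRPL24 are large-subunit proteins, the first specific to mitochondria and the second with a bacterial counterpart. MRPL52 had 79.2, 106 and 160 CPM in replicates 1, 2 and 3 at 8000 Pa, against 207, 131 and 216 CPM at 500 Pa. MRPL24 had 104, 120 and 176 CPM at 8000 Pa, against 236, 162 and 240 CPM at 500 Pa. In both genes every 8000 Pa library lay below the 500 Pa library of its own number, replicate 1 differed most, and the groups overlapped because replicate 3 at 8000 Pa lay above replicate 2 at 500 Pa. The log2 fold change was -0.68 ± 0.31 (SE) for MRPL52 and -0.68 ± 0.28 for MRPL24 without pairing.

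MRPL11, the counterpart of the bacterial stalk-base protein L11, which binds the factor-binding region of the large subunit, followed the same order. It had 122, 142 and 211 CPM at 8000 Pa, against 278, 159 and 322 CPM at 500 Pa. Again only replicate 3 at 8000 Pa exceeded a library at 500 Pa, and the log2 fold change was -0.68 ± 0.31 (SE). MRPL17 had 116, 152 and 204 CPM at 8000 Pa, against 221, 169 and 276 CPM at 500 Pa, and was named after its values had been seen. MRPL21, second highest per kilobase, had 135, 167 and 209 CPM at 8000 Pa, against 260, 177 and 271 CPM at 500 Pa. In both genes the difference was again smallest in replicate 2.

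**Figure D2:**
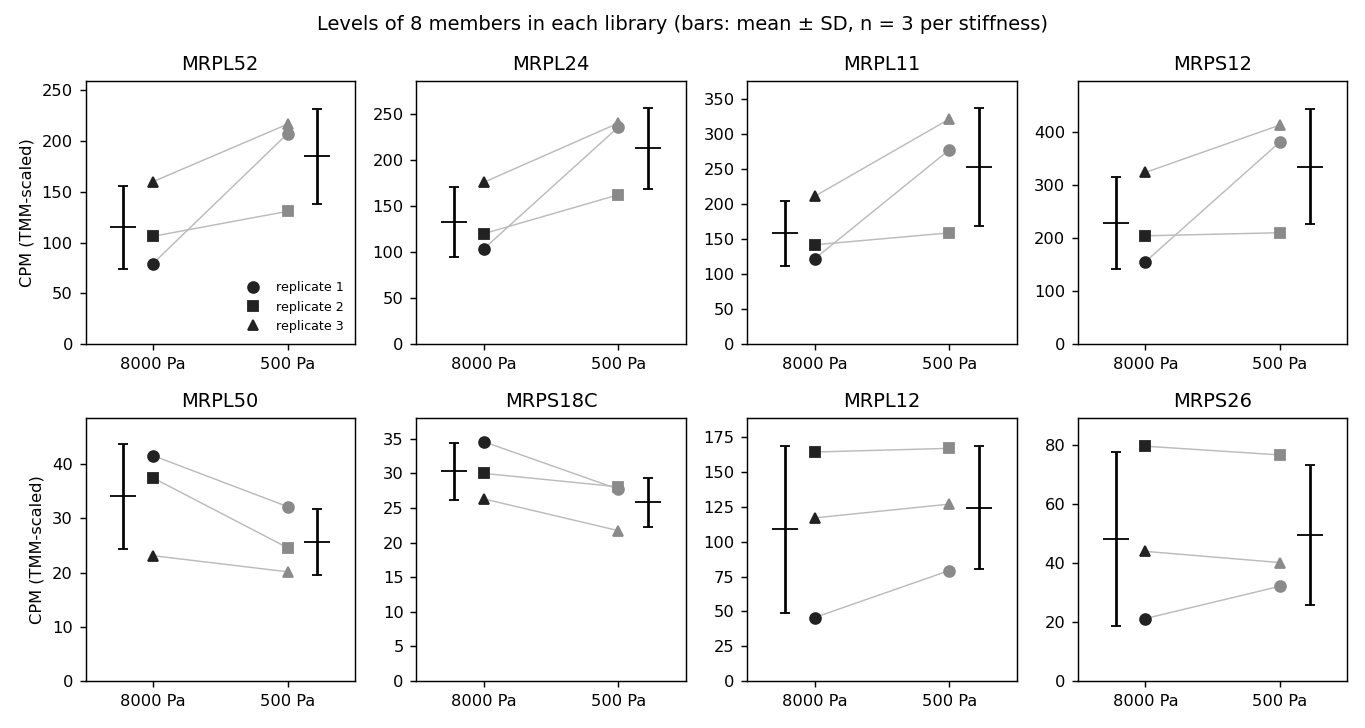
TMM-scaled CPM of 8 members in each library, 8000 Pa left of 500 Pa in each panel, with lines joining libraries of the same replicate number and bars for the mean ± SD (n = 3 each). For MRPL52, MRPL24, MRPL11 and MRPS12 replicate 1 has the steepest line; MRPL50 and MRPS18C are higher at 8000 Pa in each replicate number; MRPL12 and MRPS26 separate by replicate number more than by stiffness.

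The MRPS members of lowest fold change showed a similar order of libraries. MRPS12, the counterpart of the decoding-centre protein S12, had 156, 205 and 324 CPM at 8000 Pa, against 382, 210 and 414 CPM at 500 Pa, with a log2 fold change of -0.56 ± 0.33 (SE). MRPS11, the counterpart of the platform protein S11, had 111, 127 and 202 CPM at 8000 Pa, against 221, 140 and 241 CPM at 500 Pa (-0.45 ± 0.30). In both genes replicate 2 was nearly level between stiffnesses and the groups overlapped. MRPS21 had 49.7, 64.97 and 70.6 CPM at 8000 Pa, against 92.6, 65.5 and 83.6 CPM at 500 Pa (-0.38 ± 0.27). MRPS34, specific to mitochondria, had 178, 213 and 362 CPM at 8000 Pa, against 330, 241 and 333 CPM at 500 Pa (-0.26 ± 0.30). For MRPS34 the highest library of all was replicate 3 at 8000 Pa, and with the GC correction its log2 fold change was 0.06. MRPS15 had 207, 225 and 283 CPM at 8000 Pa, against 314, 222 and 338 CPM at 500 Pa (-0.29 ± 0.26).

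The paralogs MRPS18A, MRPS18B and MRPS18C encode alternative relatives of bacterial S18, of which MRPS18A is built into the large subunit and the other pair into the small one. MRPS18A had 89.9, 115 and 185 CPM at 8000 Pa, against 164, 116 and 211 CPM at 500 Pa, with a log2 fold change of -0.34 ± 0.32 (SE). MRPS18C had 34.6, 30.0 and 26.3 CPM at 8000 Pa, against 27.7, 28.1 and 21.7 CPM at 500 Pa (0.23 ± 0.29). MRPS18A was lower and MRPS18C higher at 8000 Pa in each replicate number, and the groups overlapped in both. MRPS18A shares 47.0% of its exonic bases with RSPH9 on the opposite strand and MRPS18C 40.2% with ABRAXAS1, also on the opposite strand, and whether counting used the strand is not given in the sources used here. MRPS36, now known as a component of the alpha-ketoglutarate dehydrogenase complex rather than of the ribosome, had 15.4, 21.2 and 16.9 CPM at 8000 Pa, against 17.7, 27.8 and 21.0 CPM at 500 Pa (-0.31 ± 0.32).

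At the other end of the order stood members with values above 0 and none past the test. MRPL50, specific to mitochondria, had 41.6, 37.5 and 23.1 CPM at 8000 Pa, against 32.2, 24.6 and 20.2 CPM at 500 Pa, with a log2 fold change of 0.41 ± 0.33 (SE). MRPL42 had 82.8, 66.8 and 52.0 CPM at 8000 Pa, against 65.5, 57.0 and 50.6 CPM at 500 Pa (0.22 ± 0.28). Both were higher at 8000 Pa in each replicate number, both were highest in replicate 1 at 8000 Pa, and the groups overlapped. MRPL13, the counterpart of L13, an early-assembling large-subunit protein, had 118, 110 and 71.3 CPM at 8000 Pa, against 92.3, 97.7 and 63.9 CPM at 500 Pa (0.24 ± 0.29). MRPL30 had 77.2, 52.9 and 46.5 CPM at 8000 Pa, against 55.8, 63.9 and 30.4 CPM at 500 Pa (0.23 ± 0.33), and without replicate 1 at 8000 Pa the value was -0.01. MRPL33, the highest member per kilobase, had 178, 196 and 182 CPM at 8000 Pa, against 168, 171 and 149 CPM at 500 Pa (0.19 ± 0.23). Its groups did not overlap, by a narrow margin.

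In the small subunit, MRPS28 had 49.8, 43.9 and 49.7 CPM at 8000 Pa, against 39.5, 43.7 and 41.2 CPM at 500 Pa (log2 fold change 0.21 ± 0.26, SE). MRPS5, the counterpart of the decoding-fidelity protein S5, had 86.4, 72.2 and 87.0 CPM at 8000 Pa, against 76.7, 79.1 and 59.0 CPM at 500 Pa (0.19 ± 0.26). MRPS28 did not overlap between the groups, by a very narrow margin (43.9 against 43.7 CPM, both in replicate 2), and MRPS5 did. MRPS10 had 125, 92.0 and 66.9 CPM at 8000 Pa, against 97.3, 101 and 53.9 CPM at 500 Pa (0.17 ± 0.32), and the value was -0.08 without replicate 1 at 8000 Pa. MRPS23, named for its groups not overlapping, had 111, 103 and 108 CPM at 8000 Pa, against 149, 117 and 116 CPM at 500 Pa (-0.25 ± 0.24).

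Some members varied more between replicate numbers than between stiffnesses, MRPS10 above among them. Those given here are examples, named after their values had been seen. MRPL12, a stalk protein also described as a partner of the mitochondrial RNA polymerase, had 45.5, 164 and 117 CPM at 8000 Pa, against 79.3, 167 and 127 CPM at 500 Pa (log2 fold change -0.19 ± 0.41, SE). MRPS26 had 21.2, 79.7 and 44.0 CPM at 8000 Pa, against 32.1, 76.7 and 40.2 CPM at 500 Pa (-0.04 ± 0.45). In both genes replicate 2 was highest and replicate 1 lowest at either stiffness. MRPL12 shares 68.2% of its exonic bases with another annotated gene, AC139530.2. MRPL41 had 18.5, 47.9 and 50.3 CPM at 8000 Pa, against 43.5, 62.6 and 60.9 CPM at 500 Pa (-0.52 ± 0.37), with replicate 1 again the lowest. It was also lower at 8000 Pa in each replicate number, and edgeR with the block did not call it (adjusted p = 0.29).

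**Figure D3:**
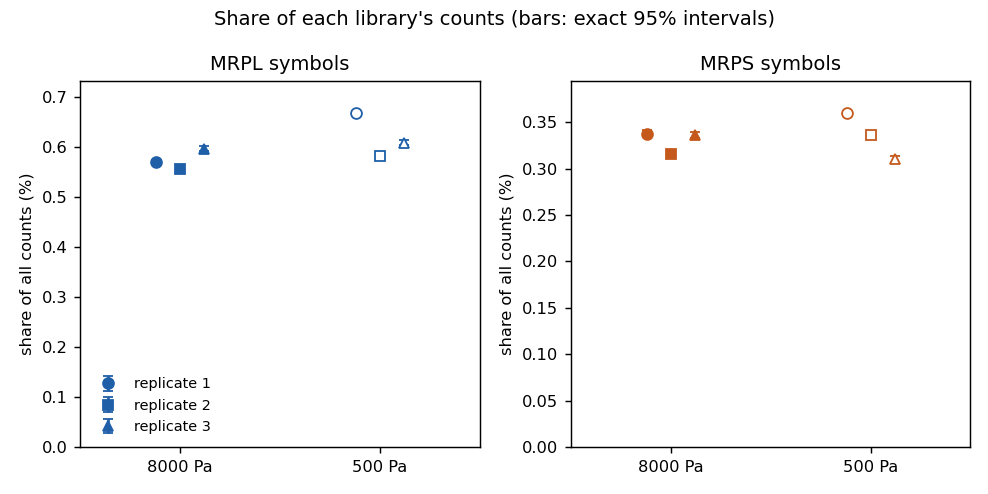
Share of each library's gene counts that fell on MRPL (left) and MRPS symbols (right), in percent, with filled markers for 8000 Pa, open markers for 500 Pa and bars for exact 95% intervals that cover counting error only and are mostly hidden by the markers. The MRPL share is highest in replicate 1 at 500 Pa (0.668%), and the groups overlap in both classes.

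Summed over the class, MRPL symbols took 0.569%, 0.556% and 0.596% of the counts in replicates 1, 2 and 3 at 8000 Pa, against 0.668%, 0.581% and 0.608% at 500 Pa. Each 8000 Pa library lay below the 500 Pa library of its number, the widest gap was in replicate 1, and the groups overlapped. The mean was 0.574% ± 0.0207 at 8000 Pa and 0.619% ± 0.0443 at 500 Pa (SD, n = 3 each). MRPS symbols took 0.338%, 0.315% and 0.337% at 8000 Pa, against 0.360%, 0.336% and 0.310% at 500 Pa. Their means, 0.330% ± 0.0125 at 8000 Pa and 0.336% ± 0.0247 at 500 Pa, differed by less than 1 SD, and replicate 3 was higher at 8000 Pa. After TMM scaling the MRPL sum was 5474 ± 847 CPM at 8000 Pa and 6587 ± 915 CPM at 500 Pa, and the MRPS sum was 3140 ± 417 CPM at 8000 Pa and 3556 ± 306 CPM at 500 Pa.

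By structural role, the medians were close to each other within each subunit. The 30 tested large-subunit members with a bacterial counterpart showed a median log2 fold change of -0.20, and 21 lay below 0. The 20 large-subunit members specific to mitochondria, which include MRPS30 and MRPS18A, had a median of -0.27 with 15 below 0. The 15 tested small-subunit members with a bacterial counterpart had a median of -0.07 with 8 below 0, and the 9 specific to mitochondria had -0.04 with 6 below 0. In both subunits the proteins with and without a bacterial counterpart lay side by side, and the large-subunit medians were below the small-subunit ones. Median transcript GC content, in the same order of lists, was 50.8%, 52.3%, 48.6% and 46.5%. With block and GC correction the median log2 fold changes were -0.19, -0.16, -0.08 and -0.11. The part of GC content in the difference between subunits was not tested.

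**Figure D4:**
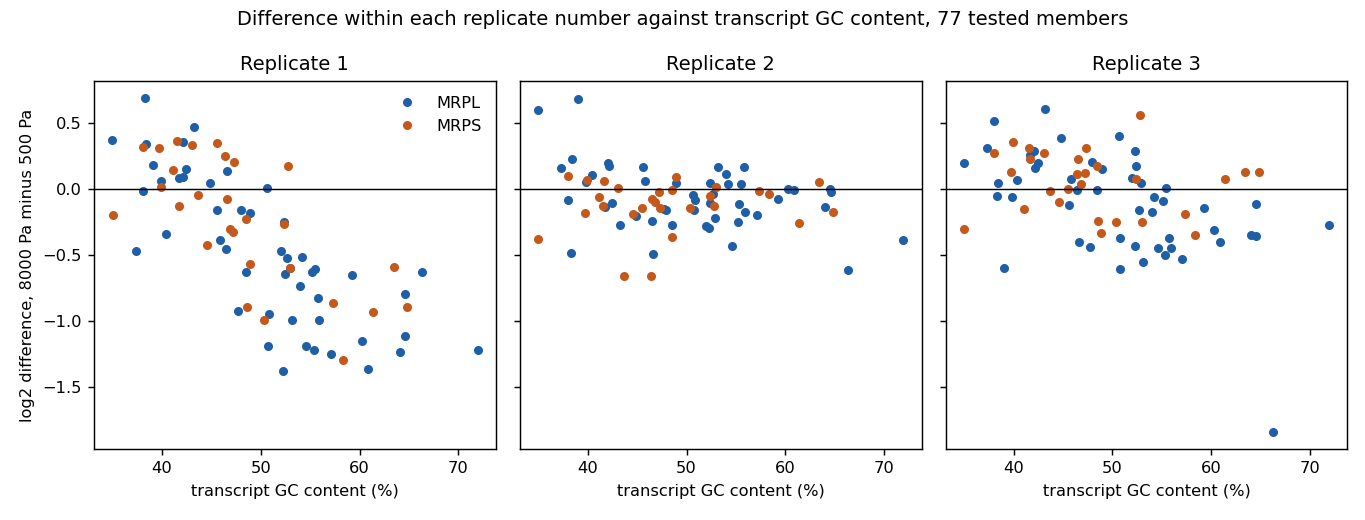
Difference in log2 level, 8000 Pa minus 500 Pa, within replicate numbers 1, 2 and 3 (panels), against the GC content of the principal transcript in percent, with 1 point per tested MRPL or MRPS symbol. The points slope down in replicate 1 (rho = -0.79) and less in replicate 3 (rho = -0.48), and hardly in replicate 2 (rho = -0.16).

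The order of the members followed the GC content of their transcripts. Spearman's rho between log2 fold change and GC content was -0.70 over the 77 tested members, against -0.38 over 11008 tested genes with a GC value. These are correlations across genes that share the same 6 libraries, so they are given as descriptions. When the members were cut at 2 points of GC content, of those with the lowest GC content (35.0 to 45.5%), 6 of 25 had a value below 0, with a median of 0.10. In the middle range 22 of 27 were below 0, with a median of -0.14. In the highest range (52.9 to 71.9%) 25 of 25 were below 0, with a median of -0.37. The ranges were chosen after the values had been seen.

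The plot of differences within each replicate number shows that the relation was unequal between them. Within replicate 1 rho was -0.79 over members and -0.62 over all genes, and the median difference of the members was -0.43. Within replicate 2 rho was -0.16 over members and 0.06 over all genes, with a median difference of -0.09. Within replicate 3 rho was -0.48 over members and 0.01 over all genes, with a median difference of -0.01. The medians over all genes were 0.03, -0.02 and -0.02 in replicates 1, 2 and 3. Replicate 1 at 8000 Pa was itself the library whose levels leaned most towards low GC, with rho = -0.79 between the deviation from the 6-library mean and GC content over all genes, while replicate 3 at 8000 Pa (rho = 0.70) and replicate 3 at 500 Pa (rho = 0.56) leaned the other way. Without replicate 1 at 8000 Pa, rho over members was -0.33, and over all genes it was 0.21.

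After the GC correction, alone or with the block, rho over members was -0.40 and -0.34, against -0.009 and 0.004 over all genes. The median log2 fold change with block and correction was -0.16 for MRPL and -0.12 for MRPS members, against 0.00 over all genes, and 59 of 77 members were below 0. By range of GC content, low to high, the medians in that fit were 0.00, -0.23 and -0.22. The part that GC content has in the members' differences was not tested.

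Genes that work with the mitochondrial ribosome gave no calls. Of 6 tested ribosomal proteins under other symbols, 4 had values below 0, with a median log2 fold change of -0.12. Among them GADD45GIP1, a large-subunit protein also known as CRIF1, had 13.9, 28.7 and 25.6 CPM at 8000 Pa, against 31.0, 48.6 and 37.0 CPM at 500 Pa (-0.77 ± 0.34, SE, edgeR adjusted p = 1.00 without pairing and 0.129 with the block). All 3 libraries at 8000 Pa lay below all 3 at 500 Pa. Of 26 assembly and RNA-modification factors 18 were below 0, with a median of -0.13. The assembly GTPase MTG1 had 42.0, 50.1 and 75.3 CPM at 8000 Pa, against 92.2, 63.4 and 110 CPM at 500 Pa (-0.67 ± 0.31), and its groups overlapped.

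Of 16 mitochondrial translation factors 7 were below 0, with a median of 0.06. The elongation factor TUFM averaged 606 ± 188 CPM at 8000 Pa and 766 ± 201 CPM at 500 Pa (SD, n = 3 each). All 5 tested genes of mitochondrial DNA transcription were below 0, with a median of -0.22, and the RNA polymerase POLRMT averaged 5.58 ± 3.10 CPM at 8000 Pa and 8.15 ± 1.80 CPM at 500 Pa. Of 9 regulators of nuclear genes for mitochondria 4 were below 0, with a median of 0.01, and the coactivator PPRC1 averaged 11.9 ± 2.86 CPM at 8000 Pa and 17.7 ± 1.80 CPM at 500 Pa. In each of these lists 0 genes were called by edgeR with or without the block.

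Without the GC correction, the MRP members had a median between those of the other large families of ribosomal and respiratory genes. The 81 tested cytosolic ribosomal protein genes showed 71 values below 0 and a median of -0.34 on the log2 scale, and 2 were called lower with the block. The 36 tested NDUF genes of complex I had a median of -0.13 with 24 below 0, and 1 was called lower with the block. For the 77 MRP members the median was -0.17 with 53 below 0, and 0 were called with the block. With block and GC correction the order differed. The medians were -0.15 for MRP, -0.22 for NDUF and -0.35 for cytosolic ribosomal protein genes, so the MRP median was the least negative. In that fit 2 MRP, 0 NDUF and 2 cytosolic ribosomal protein genes were called lower. The difference between the families was not tested.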

How the data were processed

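RNA was sequenced from 6 libraries of MCF10CA1a cells, 3 at 8000 Pa and 3 at 500 Pa, grouped by the labels. The deposited tables give whole-number read counts per gene and a log2 value. Per the submitters' processing notes, HISAT2 2.1.2, HTSeq 0.11.4, limma, DESeq2 and GRCh38 were used; which annotation, strand setting and treatment of shared reads applied is not given in the sources used here. Values of the authors' log2 column, filled for 8593 genes, differed from log2 of (count + 0.5) per TMM-scaled library by at most 0.0388 and were not tested. No 2 libraries agreed within sampling noise (15 pairs, smallest chi-square per degree of freedom 11.7).

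Counts were tested with edgeR 4.0.16 (R 4.3.3; TMM; genes kept by filterByExpr, minimum count 10 and total 15; quasi-likelihood F test; Benjamini-Hochberg adjustment over 11517 genes; threshold 0.05), and SE is the absolute log2 fold change divided by the root of F. The script was tested on simulated data. Alternatives were the replicate number as a block (2 residual degrees of freedom), a GC offset (lowess, span 0.3, for the 95.6% of tested genes with a GC value), DESeq2 1.42.0, limma 3.58.1, other scalings, no filter and leaving out libraries. The pairing rests on the replicate numbers of the labels and on the correlation of deviations within each number. Differences within a number used log2(CPM + 0.5). Lengths, GC content and overlaps came from GENCODE 29, and promoters from RefSeq. The labels call the libraries biological replicates. Intervals on shares cover counting error only.

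The members and gene lists were chosen with earlier results of these data known, so no p is given for a list. The genes named were those past the threshold in either pairing, the 4 highest and 4 lowest fold changes and the 3 smallest p-values of each class, the 2 highest per kilobase, the MRPS18 paralogs, MRPS36, and for each other list the called genes or the 1 of smallest p. MRPL17, MRPL12, MRPL41, MRPS26, MRPS23, MRPS24 and TUBB3 were added after their values were seen.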

Additional observations from a re-analysis of the deposited data

How the results depend on the processing

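Without pairing edgeR called 0 genes. The replicate block gave 61 genes, the block with the GC offset 86, no filter 8, DESeq2 7 and DESeq2 with the block 42. Leaving out 1 library gave 0 to 1 (1 without replicate 3 at 500 Pa), and with the block leaving out pair 1, 2 or 3 gave 38, 81 and 12. Only the block with the GC offset called MRPL members (2), and no setting called an MRPS member. The log2 ratio of the MRPL share was -0.11, -0.27 over TMM-scaled totals, and -0.15 to -0.051 (without replicate 1 at 500 Pa) when 1 library was left out. That of the MRPS share was -0.02, and -0.18 over TMM-scaled totals. Scaling by library size alone moved the median of all genes to 0.17, of MRPL to -0.08 (28 of 49 below 0) and of MRPS to 0.05 (12 of 28). Leaving out 1 library moved the MRPL median between -0.29 and -0.13 and the MRPS median between -0.14 and -0.02; with the block and without pair 1 they were -0.07 and -0.01. Of 37 named genes under 18 settings, 623 values kept direction and side of the threshold, 26 passed it where the unpaired value did not, and 16 changed sign. Leaving out 1 library gave MRPL30 values of -0.014 (without replicate 1 at 8000 Pa) to 0.44, MRPS10 of -0.082 (without the same library) to 0.41, MRPL12 of -0.61 to 0.18 (without the same library) and MRPS26 of -0.61 to 0.42 (without replicate 2 at 500 Pa). With the GC offset, without and with the block, MRPS34 was 0.061 and 0.060, MRPL12 0.051 and 0.056, and MRPS26 0.17 and 0.20. MRPS26 was 0.049 by library size and 0.11 with the block without pair 1. The causes were not tested. The share of MRPS counts changed sign without replicate 2 at 8000 Pa (0.01) and without replicate 1 at 500 Pa (0.03). MRPL23, MRPS18B and MRPS24 had at most 28 counts in any library, which limits the precision of their values.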
